A study of Mus musculus with 82 samples.

Results

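In all, 8 genes that mark layers or neuron types of the superior colliculus were followed: *Rorb*, *Cbln2*, *Ntsr1*, *Etv1*, *Gata3*, *Tal1*, *Tfap2b* and *Pax7*. They were found by symbol among the 43629 gene identifiers of the collicular count table, and 8 of 8 were present. The series held 82 bulk RNA-seq samples, of sorted RGCs and of superior colliculi, with 41 per tissue. The mice were adults, given in the series record as about 10 weeks old although the timeline of the methods ends somewhat later, from a cross of Vglut2-ires-Cre with Thy1-STOP-YFP, labelled as wild type. Each collicular sample was a tissue lysate, with 10 in “SHAM”, 11 in “OHT” and 10 in each of “SHAM + DREADD” and “OHT + DREADD”. In “OHT”, magnetic microbeads had been injected into the right eye to raise its pressure, whereas “SHAM” eyes received salt solution. The “DREADD” groups carried the activating receptor hM3D(Gq) with mCherry under the CaMKIIα promoter in the left colliculus, and the other groups a vector with mCherry alone. All 4 groups received CNO, the drug that activates this receptor, over 5 weeks. One “SHAM” colliculus, replicate 1, had a treatment label that conflicted with its title, and values without it are given where they matter.

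The superior colliculus is a layered structure of the dorsal midbrain, whose superficial layers receive the axons of RGCs and whose deep layers serve orienting movements. Transcription factors that pattern the embryonic dorsal midbrain and set the fate of its GABAergic neurons can remain expressed in adult collicular neurons. *Rorb* encodes a nuclear receptor and *Cbln2* a secreted organizer of synapses, both expressed in collicular neurons of superficial layers, *Ntsr1* encodes a neurotensin receptor whose Cre line labels wide-field neurons of these layers, and *Etv1* encodes a factor of the ETS family. *Gata3* and *Tal1* encode factors of GABAergic fate in the midbrain, *Tfap2b* a factor of the AP-2 family, and *Pax7* a paired homeodomain factor of the dorsal midbrain. In a lysate, fewer cells of a type and less RNA per cell cannot be told apart.

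Total counts per collicular library ranged from 1766207 to 4239835, with a median of 2926193. By *Xist* and Y-linked genes, “SHAM” held 2 females among 10 mice and “OHT” 2 among 11. “SHAM + DREADD” held 10 among 10 and “OHT + DREADD” 5 among 10. Sex and stimulation therefore cannot be fully told apart, nor can sex and OHT between the 2 stimulated groups. Neuron markers summed to between 2662 and 4061 CPM (counts scaled to library size), and oligodendrocyte markers to between 3962 and 13234 CPM. Of the markers of neighbouring tissue, *Gabra6* of the cerebellum (mean of 0.0460 CPM) and *Gbx2* of the thalamus (0.0499 CPM) were near 0, and *Asmt* of the pineal gland was at 0 in 41 of 41 libraries. Others on such lists, that of the cerebellum included, were not near 0. Among them were *Rgs16* at a mean of 13.7 CPM and *Tnnt1* at 15.7 CPM (thalamus list), and *Slc17a7* at 6.77 CPM (cortex list).

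The upstream stretches of 4 of the genes are shown because their levels moved together across colliculi, as described further on. They are the 250 bases before the RefSeq start on build GRCm38.p6, with matches to the motifs searched in capitals. *Gata3* lies at chr2:9878601-9878850 on the minus strand, *Tfap2b* at chr1:19211804-19212053 on the plus strand, *Pax7* at chr4:139832969-139833218 on the minus strand and *Tal1* at chr4:115056176-115056425 on the plus strand.
Gata3: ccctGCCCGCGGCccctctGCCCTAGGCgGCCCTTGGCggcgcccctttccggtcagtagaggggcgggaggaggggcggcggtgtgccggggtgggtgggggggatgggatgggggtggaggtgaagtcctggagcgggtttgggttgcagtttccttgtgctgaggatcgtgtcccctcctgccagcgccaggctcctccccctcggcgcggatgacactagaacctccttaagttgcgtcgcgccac
Tfap2b: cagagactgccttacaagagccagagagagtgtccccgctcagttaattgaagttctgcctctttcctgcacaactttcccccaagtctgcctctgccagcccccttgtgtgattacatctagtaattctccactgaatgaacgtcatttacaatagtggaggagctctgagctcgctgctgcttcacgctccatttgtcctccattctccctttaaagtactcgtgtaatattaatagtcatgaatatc
Pax7: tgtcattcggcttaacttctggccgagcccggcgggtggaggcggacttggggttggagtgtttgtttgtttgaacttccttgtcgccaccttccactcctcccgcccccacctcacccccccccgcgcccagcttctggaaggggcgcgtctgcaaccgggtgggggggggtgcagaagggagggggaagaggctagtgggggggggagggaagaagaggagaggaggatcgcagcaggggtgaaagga
Tal1: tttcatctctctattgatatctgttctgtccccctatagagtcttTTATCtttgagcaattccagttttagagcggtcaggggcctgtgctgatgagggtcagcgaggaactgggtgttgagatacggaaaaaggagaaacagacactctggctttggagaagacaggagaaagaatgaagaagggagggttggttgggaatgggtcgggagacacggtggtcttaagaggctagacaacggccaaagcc
The motifs were GATAA for GATA factors, GCCNNNGGC for AP-2 factors, the palindromic site of paired homeodomains, CAGATG for Tal1 and AGGTCA for Ror receptors, each on both strands. The *Gata3* stretch held 3 matches to GCCNNNGGC, none overlapping, a motif present in 13.7% of 32851 upstream stretches of the same length. The *Tal1* stretch held 1 match to GATAA, written TTATC on the strand shown, a motif present in 22.6% of them. No other match was found in these 4 stretches or in that of *Rorb*. The shares of upstream stretches with the other motifs were 0.463% for the paired homeodomain site, 14.44% for CAGATG and 14.02% for AGGTCA. A match is a description of letters and not a binding site.

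Among the genes of the superficial layers, *Rorb* had similar means in all 4 groups. Its level was 189 ± 27.4 CPM in “SHAM” (SD, n = 10), 181 ± 26.2 CPM in “OHT” (SD, n = 11), 169 ± 34.3 CPM in “SHAM + DREADD” (SD, n = 10) and 169 ± 29.0 CPM in “OHT + DREADD” (SD, n = 10). The lowest, median and highest colliculi were at 150, 184 and 229 CPM in “SHAM”, and at 119, 176 and 207 CPM in “OHT + DREADD”. All 4 groups overlapped. *Cbln2* stood at 85.0 ± 12.7 CPM in “SHAM” and 96.9 ± 17.7 CPM in “OHT”, with 86.6 ± 10.1 CPM in “SHAM + DREADD” and 89.6 ± 11.5 CPM in “OHT + DREADD”. Its highest value, 137 CPM, was that of “OHT” replicate 3, and the groups again overlapped. *Ntsr1* was close to the limit of detection, with 88 reads in all 41 libraries together and none in 10 of them. It exceeded 5 reads in 2 libraries only. Where it was tested, for “SHAM + DREADD” vs. “SHAM”, its log2 fold change was -0.41 with an SE of 0.58, and without a filter on low counts it was -0.79 with an SE of 0.56 for “OHT” vs. “SHAM”.

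*Etv1* had its highest mean in “OHT” and its lowest in “OHT + DREADD”. Its lowest, median and highest values were 23.2, 31.6 and 37.7 CPM in “SHAM”, 26.9, 37.8 and 45.9 CPM in “OHT”, 22.6, 34.4 and 58.5 CPM in “SHAM + DREADD”, and 18.9, 30.3 and 37.8 CPM in “OHT + DREADD”. The ranges overlapped, and the highest value came from “SHAM + DREADD” replicate 9.

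Of the transcription factor genes, *Pax7* had its highest mean and smallest SD in “SHAM”. There the lowest, median and highest colliculi were at 31.0, 38.6 and 44.8 CPM, compared to 20.2, 31.2 and 38.7 CPM in “OHT”. The corresponding values were 19.8, 31.3 and 44.9 CPM in “SHAM + DREADD” and 17.6, 32.3 and 49.9998 CPM in “OHT + DREADD”. Each group overlapped with “SHAM”, whose highest library was the replicate 1 with conflicting labels. *Tfap2b* had similar means, 149 ± 10.7 CPM in “SHAM” and 148 ± 31.6 CPM in “OHT”, but its SD in “SHAM” was the smallest of the 4 groups. It stood at 131 ± 27.2 CPM in “SHAM + DREADD” and 152 ± 30.2 CPM in “OHT + DREADD”. *Gata3* was at 49.4 ± 6.68, 46.2 ± 12.9, 43.7 ± 9.04 and 47.2 ± 13.1 CPM, with the groups in the order used for *Rorb*. *Tal1* was at 37.6 ± 6.91, 34.9 ± 6.85, 30.5 ± 5.22 and 33.9 ± 6.86 CPM in the same order. A gene of the same strand that overlaps *Gata3*, 9230102O04Rik, had 108 reads in all, against 5706 for *Gata3*.

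**Figure D1:**
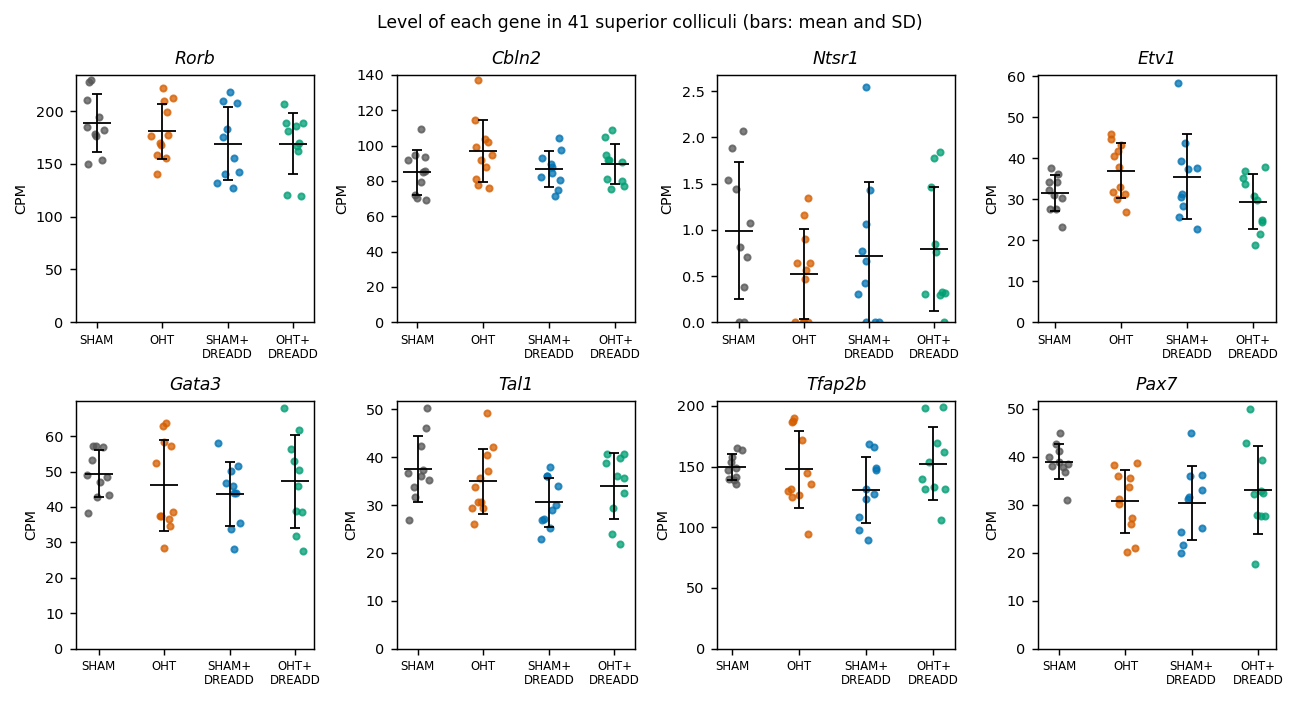
Level of each gene in CPM (vertical axis, from 0) in every colliculus of the 4 groups, with 1 point per library and bars for the mean and SD. The groups overlap for each of the 8 genes, and the 10 “SHAM” points of *Pax7* lie between 31.0 and 44.8 CPM, a narrower range than in the other groups of that gene.

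The question of whether OHT or stimulation altered these genes was put to edgeR's quasi-likelihood test, where a DEG had to reach an adjusted p of 0.1 or less together with a log2 fold change beyond 0.5 in either direction. None of the 8 genes was a DEG in any comparison. For “OHT” vs. “SHAM”, 0 of 7 tested were called, beside 0.0193% of all 15578 genes, and 2 had an unadjusted p under 0.05, beside 4.95% of all genes. *Pax7* had a log2 fold change of -0.34 (SE 0.11, unadjusted p = 0.0032, edgeR adjusted p = 0.956), and *Etv1* of 0.24 (SE 0.10, unadjusted p = 0.0262, edgeR adjusted p = 0.956). DESeq2 and limma-voom called 0 of these genes as well. When each library was left out in turn, the unadjusted edgeR p of *Etv1* ran from 0.00905 to 0.0554 and that of *Pax7* from 0.00110 to 0.00822. Without “SHAM” replicate 1, the log2 fold change of *Pax7* was -0.31 (edgeR adjusted p = 0.94). *Ntsr1* did not pass the filter on low counts here.

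For “SHAM + DREADD” vs. “SHAM”, 0 of 8 were called, beside 0.0842% of 15433 genes, by edgeR, DESeq2 or limma-voom. An unadjusted p under 0.05 was found for 3 of them, beside 9.54% of all genes. Of the 13 genes that edgeR called among all genes, 5 were *Xist* and Y-linked genes. *Pax7* had a log2 fold change of -0.35 (SE 0.11, edgeR adjusted p = 0.329), *Tal1* of -0.30 (SE 0.11, edgeR adjusted p = 0.398) and *Tfap2b* of -0.19 (SE 0.09, edgeR adjusted p = 0.505). With sex as a covariate, 1 of the 8 genes had an unadjusted edgeR p under 0.05 in place of 3, beside 8.83% of all genes. The log2 fold change of *Tal1* then became -0.66 (edgeR adjusted p = 0.386). This comparison set 2 against 10 females of 10 colliculi each. The value with sex as a covariate thus rests on the 2 female “SHAM” colliculi, replicates 7 and 8. Their *Tal1* levels, 46.1 and 50.4 CPM, were the highest of “SHAM”.

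For “OHT + DREADD” vs. “OHT”, 0 of 7 were called, beside 0.0956% of 15694 genes, and 1 had an unadjusted p under 0.05, beside 7.39% of all genes. This was *Etv1*, with a log2 fold change of -0.31 (SE 0.13, edgeR adjusted p = 0.621). For “OHT + DREADD” vs. “SHAM + DREADD”, 0 of 7 were called, beside 0.0192% of 15592 genes, and 0 had an unadjusted p under 0.05, beside 7.13%. That background share was 3 genes, all of them among *Xist* and Y-linked genes, in groups with 5 and 10 females of 10 each. DESeq2 and limma-voom called 0 members in both comparisons. These comparisons share groups and are not independent of each other.

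**Figure D2:**
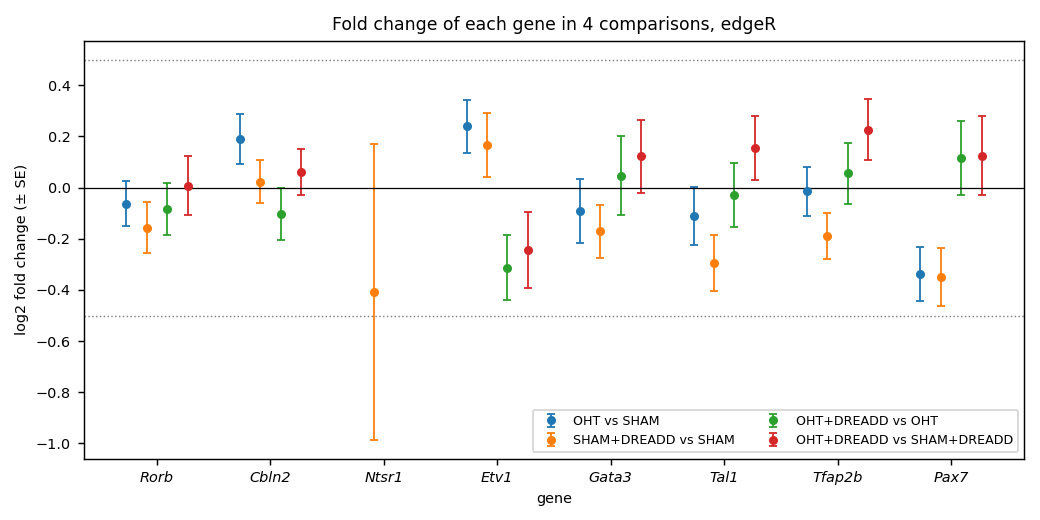
Log2 fold change of each gene (vertical axis, points with SE) in the 4 comparisons, from edgeR, with dotted lines at the threshold of 0.5 in size. The point estimates all lie within the dotted lines, and *Ntsr1*, which passed the filter in 1 comparison, has the longest bar.

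The effect of OHT with and without stimulation was compared by an interaction term in all 4 groups. Again 0 of 8 genes were called, beside 0.0433% of 16169 genes, whereas 2 had an unadjusted p under 0.05, beside 7.94%. The interaction was -0.49 (SE 0.18, edgeR adjusted p = 0.507) for *Etv1* and 0.46 (SE 0.19, edgeR adjusted p = 0.53) for *Pax7* on the log2 scale. For any difference among the 4 groups, 0 of 8 were called, beside 0.254% of 16169 genes, and 1 had an unadjusted p under 0.05, beside 7.74% of genes. This was *Pax7* (p = 0.0412, edgeR adjusted p = 0.617), and without “SHAM” replicate 1 the number was 0. DESeq2 and limma-voom called 0 of the 8 in both tests.

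The spread among colliculi of a group was then compared with that of all genes. The biological coefficient of variation was 16.03% for *Rorb*, 13.8% for *Cbln2*, 18.1% for *Etv1*, 20.4% for *Gata3*, 16.4% for *Tal1*, 17.3% for *Tfap2b* and 19.1% for *Pax7*, and its median over all genes was 19.4%. Set against the trend at the same abundance, the value of *Gata3* was high (trend of 16.1%), and the ratio exceeded that of 87.0% of genes for *Gata3*, 78.4% for *Pax7*, 76.2% for *Tfap2b* and 73.0% for *Etv1*. For *Ntsr1* it was 59.2%, at a mean of 2.15 reads per library.

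Correlations across the 41 colliculi were computed to see whether the genes vary together, as they might where dissections take in different shares of the layers. Of the 28 pairs, 9 had a positive and 3 a negative Pearson correlation of log2 CPM at an unadjusted permutation p under 0.05. The 3 negative ones, of *Etv1* with *Tal1*, *Tfap2b* and *Pax7*, had r between -0.399 and -0.327. Over all pairs of genes, 7.24% had r of -0.3 or lower and 1.17% had r of at least 0.5. The 4 transcription factor genes correlated positively in 6 of 6 pairs, with a median r of 0.56, while the median over all pairs of genes was -0.0025. Among *Rorb*, *Cbln2*, *Ntsr1* and *Etv1*, taken here as the layer genes although *Etv1* is not known as specific to the superficial layers, the median was -0.04 over 6 pairs, and between the sets it was -0.01 over 16 pairs.

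*Tfap2b* and *Pax7* had the highest correlation (r = 0.753, rho = 0.723, permutation p = 1e-05 each, the smallest that 100000 resamples can give). Without the 2 colliculi farthest from the median of *Tfap2b*, r was 0.721. Of the 16168 other genes, 0.0124% correlated at least as highly with *Pax7*. Within groups, r was 0.05 in “SHAM”, 0.885 in “OHT”, 0.646 in “SHAM + DREADD” and 0.953 in “OHT + DREADD”, so that “SHAM” did not show it. *Gata3* and *Tfap2b* followed (r = 0.747, rho = 0.758, permutation p = 1e-05 each), with r of 0.733 without the 2 farthest and between 0.62 and 0.872 within groups. *Gata3* and *Pax7* had r = 0.604 and rho = 0.569 (permutation p = 2e-05 and 0.00013), with r of 0.589 without the 2 farthest and between 0.35 and 0.658 within groups.

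*Rorb* went with *Tal1* (r = 0.615, rho = 0.575, permutation p = 1e-05 and 1e-04), and r was 0.564 without the 2 farthest and between 0.436 and 0.686 within groups. *Etv1* went the other way from *Tal1* (r = -0.399, rho = -0.414, permutation p = 0.00989 and 0.00712). Without the 2 farthest, this r was -0.287. *Cbln2* correlated with *Rorb* (r = 0.326, rho = 0.398, permutation p = 0.037 and 0.00979), with r of 0.268 without the 2 farthest.

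**Figure D3:**
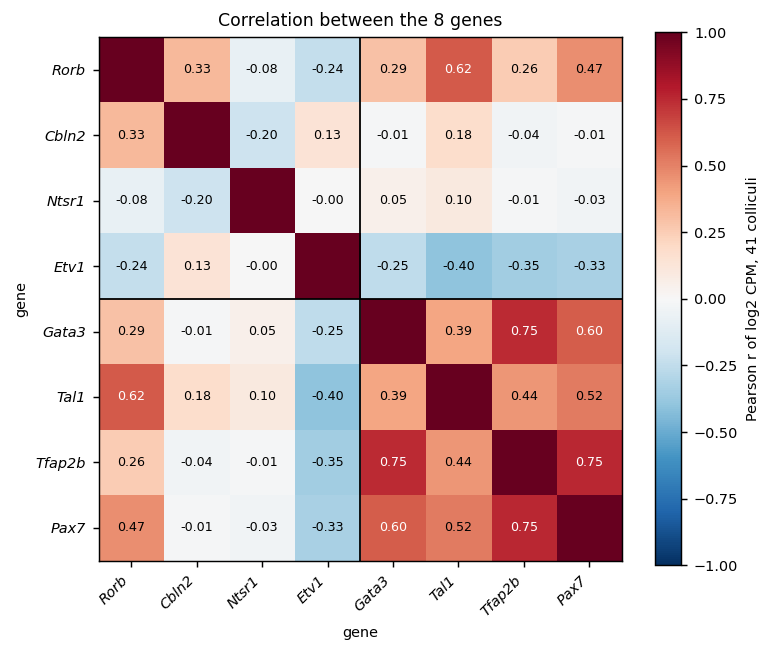
Pearson r of log2 CPM for each pair of genes over 41 colliculi, in color and as numbers. Lines separate *Rorb*, *Cbln2*, *Ntsr1* and *Etv1* from the transcription factor genes. The lower right block, of *Gata3*, *Tal1*, *Tfap2b* and *Pax7*, is positive throughout, with 0.75 for *Tfap2b* with *Gata3* and with *Pax7*.

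**Figure D4:**
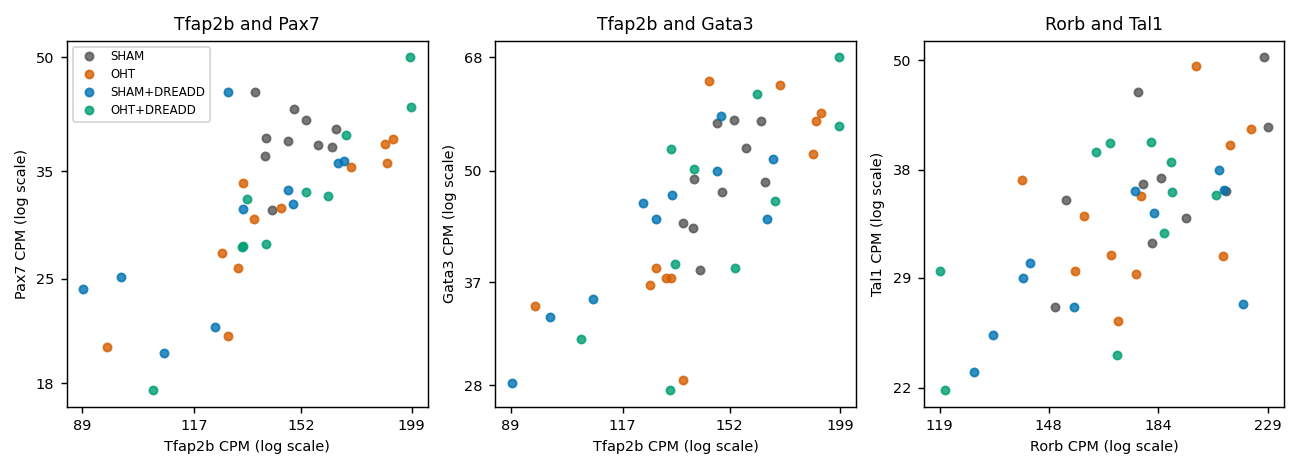
CPM of 3 pairs of genes, on logarithmic axes, with 1 point per colliculus in the color of its group. The 10 “SHAM” points of *Tfap2b* and *Pax7* form a narrow cloud with r of 0.05, while the other groups spread along the diagonal.

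The same relation was tested over all genes, by an edgeR fit of every gene on the level of 1 of the 8 genes with the group as a term. Of 56 such tests among the genes, 14 were called at an adjusted p of at most 0.1, which covered 8 pairs. The share of all genes called was 18.4% along *Tfap2b*, 17% along *Pax7*, 16.5% along *Gata3*, 11.2% along *Rorb*, 5.36% along *Cbln2*, 3.86% along *Tal1* and 0% along *Etv1* and *Ntsr1*. Per SD of *Tfap2b*, *Gata3* was higher by 0.26 on the log2 scale (SE 0.04, edgeR adjusted p = 1.53e-05) and *Pax7* by 0.26 (SE 0.04, edgeR adjusted p = 1.14e-05). Per SD of *Rorb*, *Tal1* was higher by 0.16 (SE 0.04, edgeR adjusted p = 0.0103), a call that was lost with the ribosomal protein genes described next as a covariate (edgeR adjusted p = 0.113).

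A broad feature of the libraries moved with these genes. The summed level of cytosolic ribosomal protein genes ran from 15375 to 25666 CPM and fell with rising *Pax7* (r = -0.777, rho = -0.73, permutation p = 1e-05 each), *Tfap2b* (r = -0.72, rho = -0.707, permutation p = 1e-05 each) and *Gata3* (r = -0.703, rho = -0.599, permutation p = 1e-05 and 5e-05). The r without the 2 farthest colliculi was -0.772, -0.775 and -0.647. The sum was also lower with higher *Rorb* (r = -0.572, rho = -0.388, permutation p = 1e-04 and 0.0133; r = -0.374 without the 2 farthest) and *Tal1* (r = -0.502, rho = -0.376, permutation p = 0.00066 and 0.0162; r = -0.395 without the 2 farthest). With this sum as a covariate, chosen after seeing the data, 1 of the 56 tests was called in place of 14, which was *Tfap2b* along *Gata3* (edgeR adjusted p = 0.0773). The share of all genes called then fell to 0.00619% along *Tfap2b*, 0% along *Pax7*, 4.01% along *Gata3*, 2.74% along *Rorb* and 0.0309% along *Tal1*. With it regressed out, the median r of the transcription factor pairs was 0.18 in place of 0.56, and r was 0.444 for *Tfap2b* with *Pax7*, 0.487 for *Gata3* with *Tfap2b*, 0.129 for *Gata3* with *Pax7* and 0.462 for *Rorb* with *Tal1*. Within “SHAM”, rho with the sum was -0.285 for *Pax7*, 0.297 for *Tfap2b* and 0.0788 for *Gata3*, and within the other groups it lay between -0.976 and -0.555 for these genes. Correlation with a member also rose with the genomic span of a gene, with a rho across 10861 genes of 0.321 for *Rorb*, 0.284 for *Pax7*, 0.256 for *Gata3*, 0.253 for *Tfap2b* and 0.246 for *Tal1*, compared to -0.149 for *Etv1*. Genes are not independent replicates, and the part of RNA quality or library composition in these values was not tested.

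Some of the genes also moved with the sum of neuron markers. It was correlated with *Gata3* (r = 0.572, rho = 0.536, permutation p = 6e-05 and 0.00049) and *Tfap2b* (r = 0.542, rho = 0.405, permutation p = 0.00025 and 0.0091), with r of 0.548 and 0.461 without the 2 farthest. Of the 5 markers, 4 correlated positively with each, and the lowest r was -0.426 and -0.180. Within “SHAM” rho with the sum was 0.00606 and -0.345. For *Pax7*, *Cbln2* and *Tal1*, r with the sum was 0.433, 0.353 and 0.350. For *Rorb*, *Ntsr1* and *Etv1*, it was 0.238, 0.218 and -0.125. With neuron markers regressed out, r was 0.685 for *Tfap2b* with *Pax7* and 0.634 for *Gata3* with *Tfap2b*. Markers of the meninges, at 232 to 1051 CPM, were lower where *Cbln2* was higher (r = -0.485, rho = -0.504, permutation p = 0.00134 and 0.00084; r = -0.493 without the 2 farthest). The same sum was lower with higher *Tfap2b* (r = -0.461, rho = -0.349, permutation p = 0.0023 and 0.0261; r = -0.433 without the 2 farthest), and r lay between -0.350 and -0.345 for *Tal1*, *Pax7*, *Gata3* and *Rorb*. Microglial markers were lower with higher *Cbln2* (r = -0.468, rho = -0.482, permutation p = 0.00205 and 0.00158; r = -0.422 without the 2 farthest), with r between -0.387 and -0.281 for *Rorb*, *Tal1*, *Gata3*, *Tfap2b* and *Pax7*. Oligodendrocyte markers were lower with higher *Rorb* (r = -0.428, rho = -0.381, permutation p = 0.00504 and 0.0142; r = -0.327 without the 2 farthest). The part of these markers in the correlations was otherwise not tested.

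Genes of GABAergic fate and transmission, such as *Gad1* and *Gad2*, which make GABA, and *Slc32a1*, which loads it into vesicles, were set beside the 8 genes. Their sum went with *Gata3* (r = 0.852, rho = 0.814, permutation p = 1e-05 each) and *Tfap2b* (r = 0.69, rho = 0.702, permutation p = 1e-05 each), with r of 0.809 and 0.683 without the 2 farthest. For both, 9 of 9 list genes correlated positively, with medians of 0.561 and 0.489, beside medians over all genes of 0.00411 and -0.00383. Within “SHAM” alone rho was 0.164 and -0.152. In “SHAM + DREADD” vs. “SHAM”, 0 of these 9 genes were called by edgeR, with 7 at an unadjusted p under 0.05, beside 9.54% of all genes, and a median log2 fold change of -0.29. These groups held 10 and 2 females of 10 each, and the part of sex was not tested for this list. In the same comparison 3 of 5 microglial and 2 of 5 oligodendrocyte markers had an unadjusted p under 0.05, and the mean ribosomal protein gene sum was 18870 CPM in “SHAM + DREADD” and 16993 CPM in “SHAM”. For “OHT + DREADD” vs. “SHAM + DREADD” the GABAergic list had 8 of 9 log2 fold changes above 0, with a median of 0.22 and 2 at an unadjusted p under 0.05, beside 7.13% of all genes. Sex differed between these groups as well, with 5 and 10 females of 10 each. The other superficial layer genes (*Grp*, *Npnt*, *Cdh7*, *Calb1*, *Tac1* and *Cckbr*) had a median r of 0.16 with *Rorb*, 0.192 with *Cbln2*, 0.158 with *Etv1* and -0.159 with *Ntsr1*, and 0 of 6 were called in each of the 4 comparisons.

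Genes that pattern the dorsal midbrain, such as *En1*, *En2*, *Pax3* and *Otx2*, were considered next. Of this list of 7, 6 were measured above the filter (*Pax5* was not), and 5 of 6 correlated positively with *Gata3* (median r of 0.364), with *Pax7* (median 0.363) and with *Tfap2b* (median 0.305). *Lef1* had r of 0.591, 0.583 and 0.571 with these genes and *Otx2* of 0.573, 0.554 and 0.449, whereas *En1* had r of -0.204, -0.0683 and -0.104. *Otx2* also went with *Rorb*, at r of 0.760. A list set down here for the deep layers held *Pvalb*, which encodes parvalbumin, and *Pou4f1*, though a lysate does not show the layer of either. *Pvalb* had r of -0.617 with *Gata3*, -0.566 with *Tfap2b*, -0.518 with *Pax7*, -0.420 with *Tal1* and -0.359 with *Rorb*, but 0.391 with *Etv1*. *Pou4f1*, on the other hand, had r of 0.448 with *Gata3*, 0.582 with *Tfap2b* and 0.421 with *Pax7*. In each of the 4 comparisons 0 of the 6 patterning genes were called by edgeR, with 2 at an unadjusted p under 0.05 for “SHAM + DREADD” vs. “SHAM” and 0 for the others. By contrast, a list of 7 activity genes, which holds *Fos* and *Arc*, had 5 called higher for “SHAM + DREADD” vs. “SHAM” (median log2 fold change of 0.90). It also had 5 called higher for “OHT + DREADD” vs. “OHT” (median 1.30). Of the layer and neuron type genes tested, 0 of 8 and 0 of 7 were called. With sex as a covariate, edgeR called 2 of all genes for “SHAM + DREADD” vs. “SHAM”, 1 of them higher. At most 1 activity gene can thus remain called there, in a fit that rests on 2 female “SHAM” colliculi. For “OHT + DREADD” vs. “OHT”, that setting called 120 genes.

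The genes most like each member were named from 10949 genes by r, as a description. For *Gata3* these were *Tenm2* (r = 0.842), *Slc38a1* (r = 0.817) and *L1cam* (r = 0.811), and the lowest was *Fau*, at -0.805. For *Tfap2b* they were *Gabbr2* (r = 0.803), *Tenm3* (r = 0.803) and *Tenm4* (r = 0.796), and *Txndc17* was lowest, at -0.738. For *Pax7* they were *Bcl11a* (r = 0.764), *Pclo* (r = 0.752) and *Trim66* (r = 0.752), with *Rpl38*, a ribosomal protein gene, lowest at -0.783. For *Rorb* they were *Trpm3*, *Rbm5* and *Robo2* (r = 0.807, 0.807 and 0.801), and for *Tal1* *Syt1*, *Sestd1* and *Gria1* (r = 0.715, 0.692 and 0.69).

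*Rorb* was lower in colliculi with a higher running number in the sample records, a number whose meaning is not stated (r = -0.537, rho = -0.499, permutation p = 0.00029 and 0.00099). Without the 2 farthest, r was -0.599. Within the 4 groups rho was -0.685 in “SHAM”, -0.373 in “OHT”, -0.552 in “SHAM + DREADD” and -0.806 in “OHT + DREADD”. Of all genes, 2.77% had a rho at least as low. *Cbln2* was lower as well (r = -0.404, rho = -0.368, permutation p = 0.0088 and 0.0188; r = -0.544 without the 2 farthest). *Gata3* had no such relation over all colliculi (r = 0.0365, rho = 0.0828, permutation p = 0.82 and 0.605), but its rho was 0.770 in “SHAM” and 0.736 in “OHT”, against -0.333 in “SHAM + DREADD” and -0.394 in “OHT + DREADD”. With this number regressed out, chosen after seeing the data, r of *Rorb* with *Tal1* was 0.579. With it as a covariate in the fits along a member, 11 of the 56 tests were called in place of 14. The share of all genes called fell to 1.70% along *Rorb*, 2.67% along *Cbln2* and 0.241% along *Tal1*. It did not fall along *Gata3* (17.8%), *Tfap2b* (19.7%) or *Pax7* (17.6%).

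**Figure D5:**
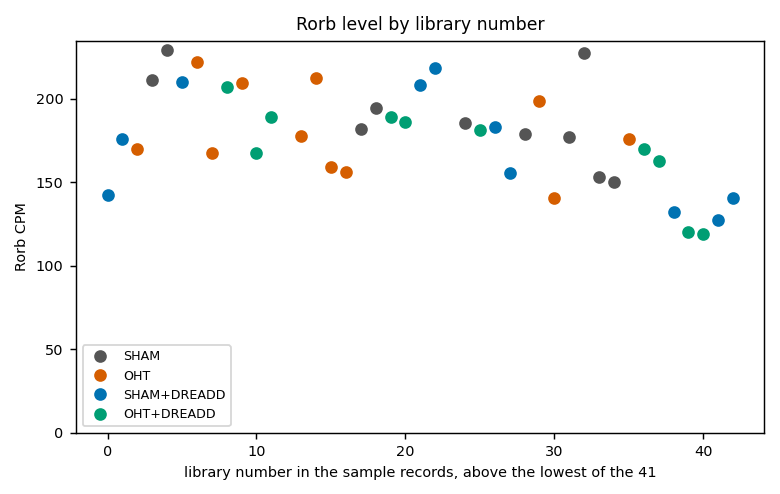
*Rorb* level in CPM (vertical axis, from 0) against the running library number of the 41 colliculi, counted from the lowest, in the color of the group. The points fall towards higher numbers, with r of -0.537.

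In the sorted RGCs of the same groups, *Rorb*, *Cbln2* and *Tfap2b* had reads in 41 of 41 libraries. *Etv1* had 414 reads in 31 libraries and *Ntsr1* had 73 reads in 9 libraries. *Gata3* had 3 reads in 1 library, *Tal1* had 4 reads in 1 library and *Pax7* had 6 reads in 2 libraries. Which cells of a sorted sample the reads came from was not tested. The counts of this table come from another library method and were not compared in level with the colliculi.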

How the data were processed

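Gene expression was measured by bulk RNA-seq in 41 superior colliculi (QuantSeq, which reads transcripts near their 3′ end) and 41 samples of sorted RGCs (Smart-Seq2). The authors checked reads with FastQC 0.11.7, aligned them to mm10 with HISAT2, discarded reads with several alignments, used SAMtools 1.5 and HTSeq 2.7.14, and deposited a raw count per Ensembl gene and sample, without normalization. The annotation release and the strand setting are not given in the sources used here.

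Groups came from the sample labels. Nothing was left out except genes with 5 reads or fewer in all but 1 sample of a fit. Each comparison used its 2 groups in R 4.3.3 and edgeR 4.0.16 (TMM, estimateDisp, glmQLFit, glmQLFTest) with Benjamini-Hochberg adjustment over all genes, and the interaction and any-difference tests used all 4 groups. A standard error is the size of the log2 fold change divided by the square root of F. CPM used TMM factors, and log2 CPM a prior count of 2. Pearson and Spearman correlations had permutation tests with 100000 resamples, not adjusted over the 28 pairs or the 96 relations with library measures. Genes of highest correlation, 3 per member, and the lowest were taken from named genes with a mean of at least 5 CPM. Intervals of counts were not needed, since spread between libraries is given. The edgeR p-values weigh a difference or slope against the spread between libraries. The permutation p-values come from shuffling all colliculi without regard to group. Alternatives were RLE factors, other filters, DESeq2 1.42.0, limma-voom (limma 3.58.1), a joint fit of the 4 groups, a block for the replicate number, a term for sex, other thresholds and samples, and covariates chosen after seeing the data (library number, ribosomal protein genes). Correlations and figures were made in Python. The members and lists were chosen with earlier results of these data known. Some genes of the marker and layer lists are not reported here.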

Additional observations from a re-analysis of the deposited data

How the results depend on the processing

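Under all 62 alternatives of the 6 comparisons, 0 members were called. The number of all genes called, read beside the members, varied more: for “SHAM + DREADD” vs. “SHAM” it was 13, but 20 with no filter and 2 with sex as a covariate; for “OHT + DREADD” vs. “OHT” it was 15, but 28 with DESeq2, 33 in 1 fit of all 4 groups, 28 with the replicate block and 120 with sex as a covariate; for “OHT + DREADD” vs. “SHAM + DREADD” it was 3, but 5 with DESeq2, 11 in 1 fit and 0 with limma-voom or sex as a covariate; for the interaction it was 7, but 26 with DESeq2, 22 with the replicate block, 4 with limma-voom or without “SHAM” replicate 1, and 3 with sex as a covariate or an adjusted p of 0.05; for any difference it was 41, but 85 with no filter, 80 with DESeq2, 65 with the replicate block and 136 with sex as a covariate. Leaving out each library, chosen after seeing the data, gave log2 fold changes of *Pax7* between -0.38 and -0.29 for “OHT” vs. “SHAM” and between -0.44 and -0.29 for “SHAM + DREADD” vs. “SHAM”, and of *Etv1* between -0.36 and -0.27 for “OHT + DREADD” vs. “OHT”. Replicate numbers were not shown to pair the samples. Within each group they rose with the running library number, so that the replicate block and that number cannot be fully told apart. With the replicate block, 6 of the 56 tests along another member were called in place of 14, all among *Gata3*, *Tfap2b* and *Pax7*, so that *Tal1* along *Rorb* was lost (adjusted p = 0.21), and the share of all genes called was 0.0186% along *Rorb* and 0.00619% along *Tal1*. With ribosomal protein genes as a covariate 1 was called, and with the library number 11.

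The median r of the 28 pairs, 0.0748, was -0.0489 within “SHAM”, 0.239 within “SHAM + DREADD”, 0.278 within “OHT + DREADD” and 0.257 without *Ntsr1*, and 0.0324 to 0.123 when each colliculus was left out. For *Rorb*, *Cbln2*, *Ntsr1* and *Etv1* it was -0.301 within “SHAM” and 0.1 within “OHT”. For the transcription factor genes it was 0.459 with neuron markers and 0.183 with ribosomal protein genes regressed out, 0.149 within “SHAM”, 0.47 within “OHT” and 0.736 within “OHT + DREADD”. Between the sets it was 0.125 with library size alone, -0.151 with neuron markers and -0.167 with ribosomal protein genes regressed out, 0.186 within “SHAM + DREADD” and 0.192 within “OHT + DREADD”. The cause was not tested.

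Log2 fold changes turned in 5 of 424 alternatives: with limma-voom to 0.00022 for *Tfap2b* (“OHT” vs. “SHAM”), and to 0.005 for *Rorb* and 0.0138 for *Tal1* (“OHT + DREADD” vs. “OHT”); with sex as a covariate to -0.107 for *Cbln2* (“SHAM + DREADD” vs. “SHAM”); and in 1 fit to -0.000577 for *Rorb* (“OHT + DREADD” vs. “SHAM + DREADD”). Correlations turned sign in 52 of 448 alternatives. Within “SHAM + DREADD” r was 0.265 for *Rorb*/*Ntsr1*, 0.142 for *Cbln2*/*Ntsr1*, -0.124 for *Cbln2*/*Etv1*, 0.147 for *Cbln2*/*Gata3*, 0.35 for *Cbln2*/*Pax7*. Within “OHT + DREADD” r was 0.21 for *Rorb*/*Etv1*, 0.409 for *Cbln2*/*Gata3*, 0.284 for *Cbln2*/*Tfap2b*, 0.131 for *Cbln2*/*Pax7*, -0.287 for *Ntsr1*/*Gata3*. With ribosomal protein genes regressed out r was -0.195 for *Rorb*/*Gata3*, -0.272 for *Rorb*/*Tfap2b*, 0.0409 for *Ntsr1*/*Tfap2b*, 0.00752 for *Ntsr1*/*Pax7*. Within “SHAM” r was -0.39 for *Rorb*/*Gata3*, -0.517 for *Rorb*/*Tfap2b*, -0.287 for *Cbln2*/*Etv1*, 0.498 for *Ntsr1*/*Etv1*, -0.206 for *Ntsr1*/*Tal1*, 0.128 for *Ntsr1*/*Tfap2b*, -0.0465 for *Tal1*/*Tfap2b*. Within “OHT” r was -0.142 for *Rorb*/*Tfap2b*, 0.154 for *Cbln2*/*Ntsr1*, -0.0623 for *Cbln2*/*Tal1*, 0.672 for *Ntsr1*/*Etv1*, -0.0734 for *Ntsr1*/*Gata3*, -0.298 for *Ntsr1*/*Tal1*, 0.129 for *Ntsr1*/*Tfap2b*, 0.243 for *Etv1*/*Tfap2b*, 0.345 for *Etv1*/*Pax7*. With library size alone r was 0.181 for *Cbln2*/*Gata3*, 0.14 for *Cbln2*/*Tfap2b*, 0.155 for *Cbln2*/*Pax7*, 0.0203 for *Ntsr1*/*Etv1*, 0.0188 for *Ntsr1*/*Tfap2b*. With groups centred r was 0.0163 for *Cbln2*/*Gata3*, 0.0892 for *Cbln2*/*Pax7*, 0.0861 for *Ntsr1*/*Etv1*. With oligodendrocyte markers regressed out r was 0.0153 for *Cbln2*/*Gata3*, 0.0476 for *Cbln2*/*Pax7*, 0.00428 for *Ntsr1*/*Etv1*. With library number regressed out r was 0.00318 for *Cbln2*/*Gata3*. Without the 2 colliculi farthest from the median of the first gene r was 0.0717 for *Cbln2*/*Gata3*, 0.0373 for *Cbln2*/*Tfap2b*, 0.107 for *Cbln2*/*Pax7*, 0.0163 for *Ntsr1*/*Tfap2b*, 0.00834 for *Ntsr1*/*Pax7*. With prior count 0.5 r was 0.0188 for *Ntsr1*/*Etv1*. With Spearman r was 0.0177 for *Ntsr1*/*Etv1*. With neuron markers regressed out r was 0.0275 for *Ntsr1*/*Etv1*, -0.0897 for *Ntsr1*/*Gata3*. Without “SHAM” replicate 1 r was 0.0117 for *Ntsr1*/*Pax7*.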
